A study of Rattus norvegicus with 6 samples.

Results

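The genes described here are ligands and receptors of the tumor necrosis factor (TNF) superfamily and the checkpoint ligand PD-L1, measured by RNA-seq in neonatal rat cardiac fibroblasts (NRCFs), the cells that build the collagen matrix of the heart. They are 10 of the 21857 gene symbols listed in each count file, taken by symbol: Tnf, Tnfsf10, Tnfsf13b, Tnfrsf1a, Tnfrsf1b, Tnfrsf11b, Tnfrsf12a, Cd40, Fas and Cd274. NRCFs were primary cells from hearts of healthy Sprague-Dawley rats, taken within 3 days of birth, and the strain field of the labels reads "Noway". In the Vector group (genotype label WT) the cells received an empty plasmid, and in the group labelled FTO overexpression they received a plasmid with the rat FTO sequence, an RNA demethylase that removes N6-methyladenosine. Cells of both groups were transfected and collected after 48 h, and there were 3 libraries per group. No animal, culture or batch is named for a replicate, so p-values measure the spread between these libraries, which may be technical.

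TNF superfamily ligands are mostly trimers on the cell surface or shed from it. Their receptors either recruit TRAF adaptors and switch on NF-κB, or carry a death domain that can start apoptosis, and a few act as soluble decoys that bind a ligand without signalling. TNF itself, a cytokine made mainly by macrophages and lymphocytes, acts through Tnfrsf1a (TNFR1), which most cells carry, and Tnfrsf1b (TNFR2), which is more restricted. PD-L1, encoded by Cd274, belongs to the B7 family and not to the TNF superfamily. It binds PD-1 on T cells and restrains them, and interferon-γ and NF-κB are known to raise it in many cell types.

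Depth was 13178952 to 17857999 counts per library, and values are given as CPM, the counts scaled to a common library size with TMM factors. A floor of 3 counts was worth 0.168 to 0.227 CPM. Of 12941 genes tested, 65.9% passed the edgeR test at an adjusted p under 0.05 (33.2% higher in the libraries labelled FTO and 32.8% lower), 19.6% passed the threshold of the study, an absolute log2 fold change of at least 1 with an unadjusted p under 0.05, and 70.3% had no overlap in CPM between the groups. Every count of members is read against these shares. Fto itself was at 87.8, 89.6 and 87.4 CPM in Vector and at 93.2, 90.8 and 92.9 CPM in the libraries labelled FTO, a log2 fold change of 0.06 (SE 0.0468, edgeR adjusted p = 0.239). No rise of Fto was detected, so each direction below is that of the libraries labelled FTO against Vector.

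Of the 10 members, 8 passed the filter on low counts and 7 of those 8 differed between the groups at an adjusted p under 0.05. Tnfrsf1a, Tnfrsf1b, Tnfrsf11b, Tnfrsf12a, Fas and Cd274 were higher in the libraries labelled FTO, Tnfsf13b was lower, and Cd40 did not pass the test. These counts are a description, since Tnfsf13b passed the filter through Vector alone. Cd274, Tnfrsf1b, Tnfrsf11b and Tnfsf13b also passed the threshold of the study. The median log2 fold change of the 8 tested members was 0.47, against 0.00 over all genes tested. Tnf and Tnfsf10 were too low to test.

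**Figure D1:**
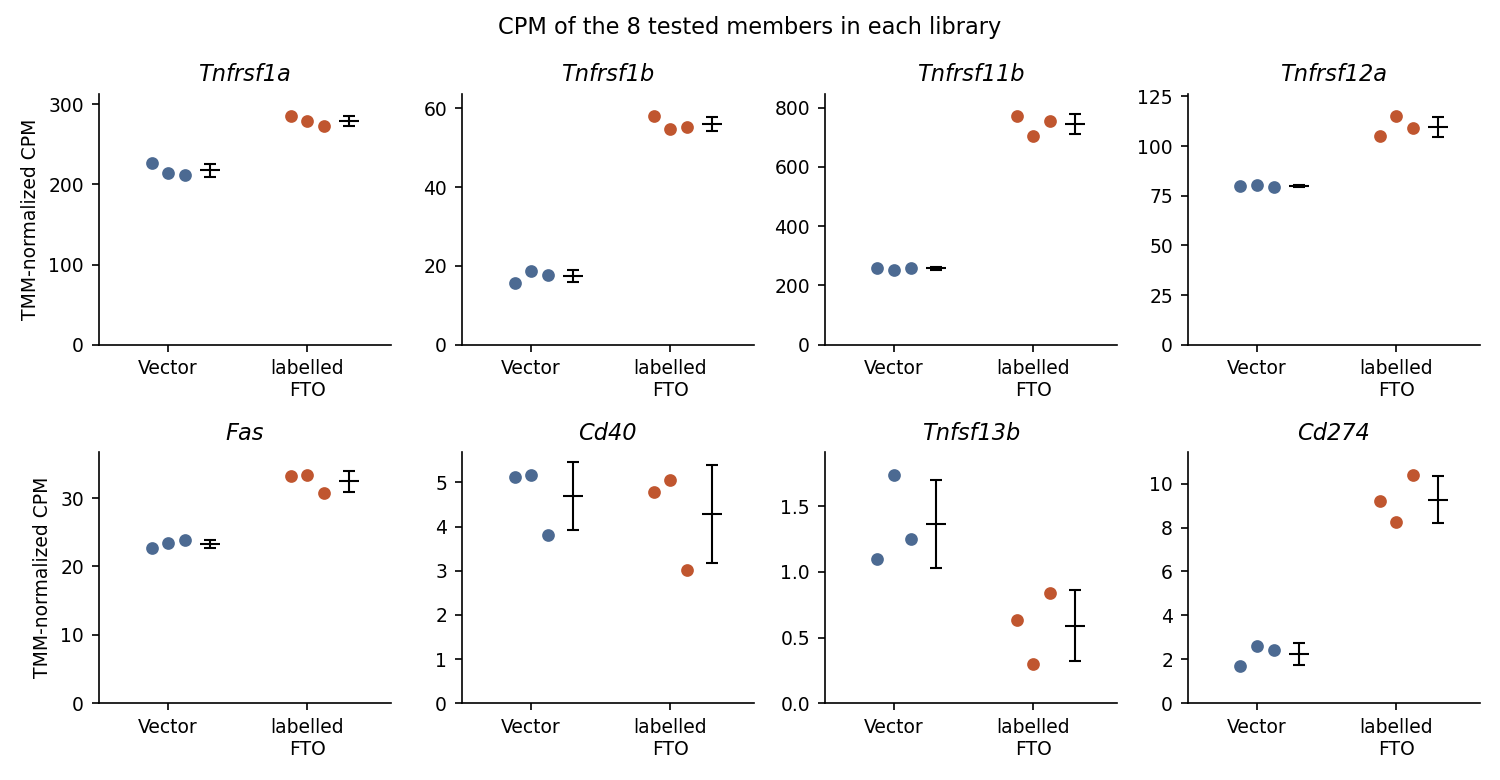
TMM-normalized CPM (vertical axes, each from 0) of the 8 tested members in the 3 Vector libraries (blue) and the 3 libraries labelled FTO (orange), with the mean and SD of each group in black. In 7 panels the groups do not overlap, and in the panel of Cd40 they do.

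The promoters of 4 members are shown, Cd274 as the member with the largest rise and the other 3 because they held an IRF match. They are RefSeq sequences of the rat build GRCr8, 5′ to 3′ on the gene's strand, the 250 bases before the annotated start. The submitters' processing notes name the build rn6, so these coordinates belong to GRCr8 alone and not to the counts. Motifs of 4 kinds were searched on both strands: an NF-κB element (GGG, any 2 bases, then TTTCC or TTCCC), an interferon regulatory factor (IRF) element (GAAA, any 2 bases, GAAA), a STAT element (TTCNNNGAA) and an AP-1 element (TGANTCA). Matches stand in capitals.
Cd274 (chr1:236529982-236530231, + strand): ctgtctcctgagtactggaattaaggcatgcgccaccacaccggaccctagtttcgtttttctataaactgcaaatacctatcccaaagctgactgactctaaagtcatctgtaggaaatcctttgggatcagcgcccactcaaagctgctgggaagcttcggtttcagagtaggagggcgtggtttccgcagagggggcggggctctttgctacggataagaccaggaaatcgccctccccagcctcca
Tnfrsf1b (chr5:162387412-162387661, - strand): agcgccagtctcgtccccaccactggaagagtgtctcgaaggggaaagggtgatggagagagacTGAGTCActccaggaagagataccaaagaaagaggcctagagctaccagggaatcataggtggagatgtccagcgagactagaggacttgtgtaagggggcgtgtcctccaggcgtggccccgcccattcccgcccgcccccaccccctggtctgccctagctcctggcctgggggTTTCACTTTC
Fas (chr1:241211905-241212154, + strand): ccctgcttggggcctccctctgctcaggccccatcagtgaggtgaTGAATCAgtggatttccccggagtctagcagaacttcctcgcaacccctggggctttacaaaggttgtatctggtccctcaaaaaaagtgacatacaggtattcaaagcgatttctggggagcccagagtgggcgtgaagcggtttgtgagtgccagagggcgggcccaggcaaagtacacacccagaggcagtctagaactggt
Tnfsf13b (chr16:86194500-86194749, - strand): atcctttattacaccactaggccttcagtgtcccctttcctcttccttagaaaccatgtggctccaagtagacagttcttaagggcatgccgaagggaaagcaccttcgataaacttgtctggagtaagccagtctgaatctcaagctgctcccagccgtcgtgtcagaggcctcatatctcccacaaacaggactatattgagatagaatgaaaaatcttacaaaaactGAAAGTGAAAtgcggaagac

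In the Tnfrsf1b window the capitals mark an AP-1 match that begins at position -186 and an IRF match that begins at -10, counted from the start site. The capitals of Fas mark an AP-1 match at -205, and those of Tnfsf13b an IRF match at -20. Fas held a further IRF match 38 bases into the transcript, in ggaactgcTTTCTCTTTCtgc (chr1:241212184-241212204, + strand). No letters of the Cd274 window matched. The full windows of 8 members, which run to 50 bases after the start, were searched, and Tnfrsf11b and Cd40 were not searched here. An IRF match was found in 3 of the 8 (3.92% of all 33469 rat windows held one), an AP-1 match in 2 (7.33% of all windows), a STAT match in 1, that of Tnfrsf12a (8.87%), and an NF-κB match in 0 (3.59%). No match overlapped another. Tnfsf13b, which was lower, and Tnfrsf1b and Fas, which rose, each held an IRF match, and Cd274, which rose most among the members, held no match of any kind. A match or its absence describes these letters only.

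Among the ligands, Tnf was listed at 0 counts in all 6 libraries. Tnfsf10 (TRAIL, a ligand of death receptors) had 0, 1 and 0 counts in Vector and 4, 1 and 0 in the libraries labelled FTO. No fold is given for either. A count of 0 leaves room for a level up to the floor, and it covers counting error only: Rpl38, Rpl10a, Rpl23a, Polr2h, Polr2i and Polr2l, which every cell uses, were also listed at 3 counts or fewer in each library, so a low row may be a gene that was not counted.

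Tnfsf13b (BAFF, a survival factor for B cells) was lower in the libraries labelled FTO. Its counts were low, at 15, 26 and 18 in Vector and 9, 4 and 15 in the libraries labelled FTO. In CPM this was 1.1, 1.74 and 1.25 against 0.631, 0.302 and 0.838. The groups did not overlap, though the lowest Vector library and the highest library labelled FTO lay close. The fold was 0.451 (95% CI 0.259 to 0.786), a log2 fold change of -1.15 (SE 0.374, edgeR adjusted p = 0.014). The filter asked for about 0.695 CPM in 3 libraries, which all 3 Vector libraries and 1 library labelled FTO reached. The gene was thus tested because it was high in Vector. That favours a fall, so the test is no independent support for one. With no filter on low counts the log2 fold change was also -1.15 (edgeR adjusted p = 0.0132). The call was lost without FTO replicate 2 (log2 fold change -0.87, adjusted p = 0.055) and without Vector replicate 2 (-0.93, adjusted p = 0.0781). Of 10 macrophage markers, 9 fell as well, Cx3cr1 among them after passing the filter through Vector alone, and none was at 0. Their sum was 1720 to 1780 CPM in Vector and 300 to 337 CPM in the libraries labelled FTO, and their part in the fall of Tnfsf13b was not tested. In bulk RNA, fewer cells of a type and less RNA per cell cannot be told apart.

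Both receptors of TNF rose. Tnfrsf1a, the death domain receptor, was at 227, 214 and 212 CPM in Vector and at 285, 279 and 273 CPM in the libraries labelled FTO. Each library labelled FTO lay above every Vector library, by a fold of 1.28 (95% CI 1.20 to 1.36), a log2 fold change of 0.35 (SE 0.0429, edgeR adjusted p = 3.2e-06). Tnfrsf1b, the receptor that signals through TRAF2 without a death domain, was at 15.7, 18.7 and 17.7 CPM in Vector (214, 278 and 256 counts) and at 58.0, 54.8 and 55.3 CPM in the libraries labelled FTO (827, 726 and 990 counts). The groups stood far apart, with a fold of 3.22 (95% CI 2.89 to 3.60) and a log2 fold change of 1.69 (SE 0.0742, edgeR adjusted p = 1.9e-11). A row that overlaps Tnfrsf1b in GRCr8, LOC103692519, had 14, 27 and 39 counts in Vector and 32, 35 and 56 in the libraries labelled FTO, far fewer than Tnfrsf1b.

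The ratio of Tnfrsf1b to Tnfrsf1a counts within a library was 0.0689, 0.087 and 0.0835 in Vector and 0.203, 0.197 and 0.203 in the libraries labelled FTO. The groups did not overlap. The mean log2 ratio was -3.65 ± 0.18 in Vector and -2.31 ± 0.0267 in the libraries labelled FTO (SD, n = 3 each), a difference of 1.34 or 2.53-fold, with a two-sided exact permutation p = 0.1, the smallest that 3 against 3 allows. Gene length is the same in every library, so it does not enter the comparison of this ratio between groups, but the ratio is no measure of which receptor was more abundant. The other 4 ratios chosen had a gene at or under 3 counts in some library and were not formed.

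Tnfrsf11b encodes osteoprotegerin, a secreted decoy that binds RANKL (Tnfsf11) and TRAIL. It was at 260, 252 and 260 CPM in Vector and at 771, 706 and 756 CPM in the libraries labelled FTO. The spread within each group was small beside the gap between them, and the fold was 2.89 (95% CI 2.71 to 3.09), a log2 fold change of 1.53 (SE 0.0438, edgeR adjusted p = 9.4e-14). Its known ligands were near the floor on both sides. Tnfsf11 was listed at 0 counts in all 6 libraries, and Tnfsf10 reached 4 counts in 1 library. Tnfrsf11a (RANK), the signalling receptor for RANKL, was lower in the libraries labelled FTO, at 0.344 ± 0.162 CPM against 1.65 ± 0.232 CPM in Vector (SD, n = 3 each; log2 fold change -2.29, SE 0.379, edgeR adjusted p = 8e-05). It passed the filter only through Vector, which favours a fall, so its test is no independent support for one.

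Tnfrsf12a (Fn14), the receptor of the ligand TWEAK and a gene known to rise in injured tissue, was at 80.0, 80.2 and 79.3 CPM in Vector. In the libraries labelled FTO it was at 105, 115 and 109 CPM. All 3 Vector libraries lay within 1 CPM of each other and below every library labelled FTO, with a log2 fold change of 0.46 (SE 0.0494, edgeR adjusted p = 8.5e-07), a fold of 1.38 (95% CI 1.28 to 1.48). Tnfsf12, which encodes TWEAK, was at 28.9 ± 1.90 CPM in Vector and 28.1 ± 1.98 CPM in the libraries labelled FTO (SD, n = 3 each; log2 fold change -0.04, SE 0.0794, edgeR adjusted p = 0.637).

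Fas, the death receptor for Fas ligand, was at 22.7, 23.4 and 23.8 CPM in Vector and at 33.3, 33.4 and 30.7 CPM in the libraries labelled FTO. The groups did not overlap, and the log2 fold change was 0.47 (SE 0.0725, edgeR adjusted p = 3.6e-05), a fold of 1.39 (95% CI 1.25 to 1.55). Faslg, its ligand, had 1 count in each Vector library and 2, 2 and 3 counts in the libraries labelled FTO.

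Cd40, the receptor through which helper T cells license antigen-presenting cells, was at 5.12, 5.17 and 3.81 CPM in Vector and at 4.77, 5.06 and 3.02 CPM in the libraries labelled FTO. The groups overlapped, and replicate 3 was the lowest in both. The log2 fold change was -0.16 (SE 0.207, edgeR adjusted p = 0.512), and the 95% CI of the fold ran from 0.658 to 1.22, so changes within that range in either direction remain possible. Cd40lg was listed at 0 counts in each library.

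Cd274 showed the largest rise among the members. Its counts were 23, 39 and 35 in Vector and 131, 109 and 187 in the libraries labelled FTO, or 1.68, 2.62 and 2.42 CPM against 9.19, 8.23 and 10.4 CPM. The lowest library labelled FTO was well above the highest Vector library. The fold was 4.14 (95% CI 3.17 to 5.39) and the log2 fold change 2.05 (SE 0.179, edgeR adjusted p = 7.8e-08), which placed Cd274 at percentile 95.5 of the log2 fold changes of all genes tested. Its promoter window, shown above, held none of the motifs searched. Plgrkt, a plasminogen receptor gene that overlaps Cd274 in GRCr8, was at 18.1 ± 1.83 CPM in Vector and 16.0 ± 1.78 CPM in the libraries labelled FTO (SD, n = 3 each; log2 fold change -0.19, SE 0.107, edgeR adjusted p = 0.128). Whether reads were counted by strand is not given in the sources used here.

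The genes whose pattern over the 6 libraries lay nearest to that of Cd274, by Euclidean distance of log2 CPM from the Vector mean among 10042 genes with a mean of at least 100 counts, were Psme2 (distance 0.258), Adamts9 (0.347), Slc16a1 (0.367), Map3k8 (0.384) and Angpt1 (0.387). Psme2, a subunit of the proteasome activator PA28, went from 3.33 to 13.6 CPM. For Tnfsf13b, the member that fell, the near genes included Lyst (0.328), Sh3pxd2a (0.477), Tet3 (0.492) and Cbl (0.507). These distances reflect mainly the size of the group difference.

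The family as a whole was then counted. The 10 members and 35 further family genes gave 18 ligands and 26 receptors beside Cd274. Of the 18 ligands, 8 were at or under 3 counts in every library and 8 were tested, with 1 higher and 5 lower at an adjusted p under 0.05 and a median log2 fold change of -0.71. Of the 26 receptors, 4 were at or under 3 counts in every library and 19 were tested, with 9 higher, 5 lower and a median of 0.35. Over all genes tested, 33.2% were higher and 32.8% lower. Summed over the lists, ligands were at 162 to 164 CPM in Vector and 119 to 137 CPM in the libraries labelled FTO, and receptors at 784 to 813 CPM and 1420 to 1500 CPM. Tnfrsf11b and Tnfrsf1a made up most of the receptor sum. Tnfsf13b, Tnfsf8 and Tnfrsf11a passed the filter through Vector alone, and Tnfrsf9 and Tnfrsf14 through the libraries labelled FTO alone. The counts of genes that passed the test are therefore a description. Whether ligands and receptors differ as groups was not tested.

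**Figure D2:**
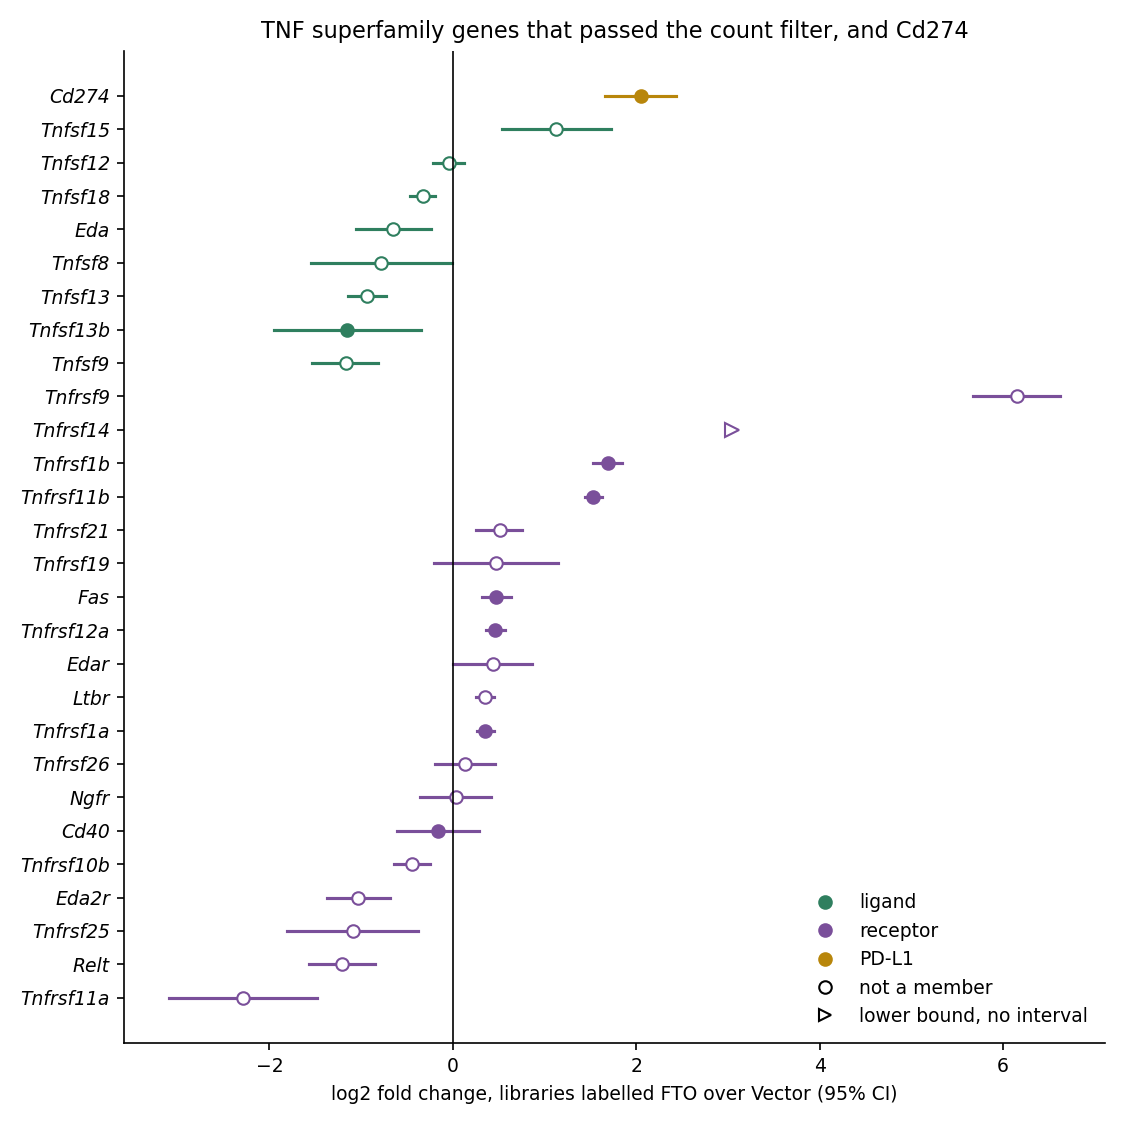
Fitted log2 fold change (horizontal axis, libraries labelled FTO over Vector) with its 95% CI for each TNF superfamily gene tested and Cd274, ligands in green, receptors in purple, PD-L1 in gold, members filled and other genes open. Tnfrsf14, which had no Vector count, is drawn as a triangle at its lower bound, an 8.22-fold rise, and Tnfrsf9 lies furthest right at 6.15.

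Among the other ligands, 5 of 7 tested passed the test, 1 higher and 4 lower, beside 65.9% passing over all genes. Tnfsf9 (4-1BB ligand) fell from 7.54 ± 0.832 to 3.38 ± 0.63 CPM (log2 fold change -1.17, SE 0.168, edgeR adjusted p = 1.9e-05). Tnfsf13 (APRIL), the nearest relative of BAFF, fell from 19.4 ± 1.06 to 10.2 ± 0.751 CPM (log2 fold change -0.94, SE 0.0983, edgeR adjusted p = 6.6e-07). Eda, known from skin appendage formation, and Tnfsf18 (GITR ligand) also fell, with log2 fold changes of -0.65 and -0.33. Tnfsf15 (TL1A), a ligand made by endothelial cells, rose from 1.19 ± 0.218 to 2.57 ± 0.658 CPM (log2 fold change 1.13, SE 0.277, edgeR adjusted p = 0.00223). Of 4 endothelial markers tested, 3 rose beside it, with sums of 19.3 to 19.8 CPM in Vector and 43.3 to 45.0 CPM in the libraries labelled FTO, and their part in the rise of Tnfsf15 was not tested.

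Lta, Ltb, Tnfsf14, Cd40lg, Faslg and Cd70, ligands best known from lymphocytes, were each listed at 3 counts or fewer in every library. So was Tnfsf11. T cell markers (4 genes) and B cell markers (5 genes) were likewise at 3 counts or fewer throughout. Tnfsf4 (OX40 ligand) had 2, 4 and 4 counts in Vector and 6, 3 and 5 in the libraries labelled FTO, too few to test.

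Of 13 other receptors tested, 9 passed the test, 4 higher and 5 lower, beside 65.9% passing over all genes. Their median log2 fold change was 0.13. Tnfrsf9 (4-1BB, the receptor of Tnfsf9) had 3, 5 and 2 counts in Vector and 245, 208 and 325 in the libraries labelled FTO. That was 0.231 ± 0.099 against 17.0 ± 1.23 CPM (SD, n = 3 each), a fold of 70.9 (95% CI 50.9 to 98.6) and a log2 fold change of 6.15 (SE 0.223, edgeR adjusted p = 1.8e-12). Tnfrsf14 (HVEM) had 0 counts in each Vector library and 25, 23 and 30 in the libraries labelled FTO, at least 8.22-fold higher against a floor of 3 counts per library (edgeR adjusted p = 1.3e-06). Both passed the filter only through the group in which they were high. That favours a rise, so their tests are no independent support for one. Tnfrsf11a and Relt fell, the latter from 6.61 ± 0.691 to 2.83 ± 0.363 CPM (log2 fold change -1.21, SE 0.168, edgeR adjusted p = 1.4e-05). Tnfrsf25 (DR3, the receptor of TL1A) also fell, by 1.09 on the log2 scale (SE 0.334, edgeR adjusted p = 0.00962), a call lost without Vector replicate 1 (log2 fold change -0.696, adjusted p = 0.0786). In its case the ligand rose and the receptor fell, whereas for Tnfsf9 and its receptor the reverse held.

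Downstream of the receptors, the listed genes of TNF receptor signalling were more often higher than lower. This is a description, since the list was chosen with earlier results of these data known. Of 36 tested, 19 were higher and 6 lower at an adjusted p under 0.05, beside 33.2% and 32.8% over all genes, and the median log2 fold change was 0.29. All 10 that passed the threshold of the study were higher. Over all genes tested, 2539 passed that threshold and 1340 of them were higher. The 5 largest differences were those of Birc3, Tnfaip3, Tnip1, Nfkbia and Traf1, each of them a known NF-κB target.

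Birc3 (cIAP2, a ubiquitin ligase of the receptor complex) rose from 6.40 ± 1.12 to 76.3 ± 4.76 CPM (SD, n = 3 each), a log2 fold change of 3.58 (SE 0.0977, edgeR adjusted p = 5.3e-14). The feedback inhibitors among the largest differences rose with it. Tnfaip3 (A20) went from 8.43 ± 0.452 to 96.0 ± 5.11 CPM (log2 fold change 3.51), Tnip1, the partner of A20, from 76.5 ± 3.76 to 581 ± 30.2 CPM (2.92), and Nfkbia (IκBα) from 38.1 ± 1.55 to 208 ± 14.9 CPM (2.45). Traf1 rose from 2.70 ± 0.359 to 8.33 ± 1.31 CPM (1.61). The largest edgeR adjusted p of the last 4 was 1.1e-06, that of Traf1.

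The signalling genes that follow were picked once their values were known. The NF-κB subunits Nfkb1, Nfkb2, Rela and Relb rose, with log2 fold changes of 1.25, 1.25, 0.31 and 1.58. Cflar (c-FLIP, which blocks caspase 8) rose by 1.58 and Casp8 by 0.41 on the same scale. Fadd, the adaptor that links Fas to caspase 8, fell from 30.0 ± 0.621 to 21.7 ± 1.49 CPM (log2 fold change -0.47, SE 0.0766, edgeR adjusted p = 7.3e-05), in the opposite direction to Fas. Adam17, the protease that sheds TNF and both of its receptors from the cell surface, rose from 114 ± 5.25 to 239 ± 3.45 CPM (log2 fold change 1.06, SE 0.0456, edgeR adjusted p = 1.3e-11). Beside Fadd, Traf5, Map3k14, Tab2, Traf4 and Chuk were lower, with log2 fold changes of -0.68, -0.44, -0.31, -0.25 and -0.14. The largest edgeR adjusted p among them was 0.0491, that of Chuk. Ripk1, Tradd, Ikbkb and Ikbkg did not pass the test, with log2 fold changes from -0.01 to 0.15.

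**Figure D3:**
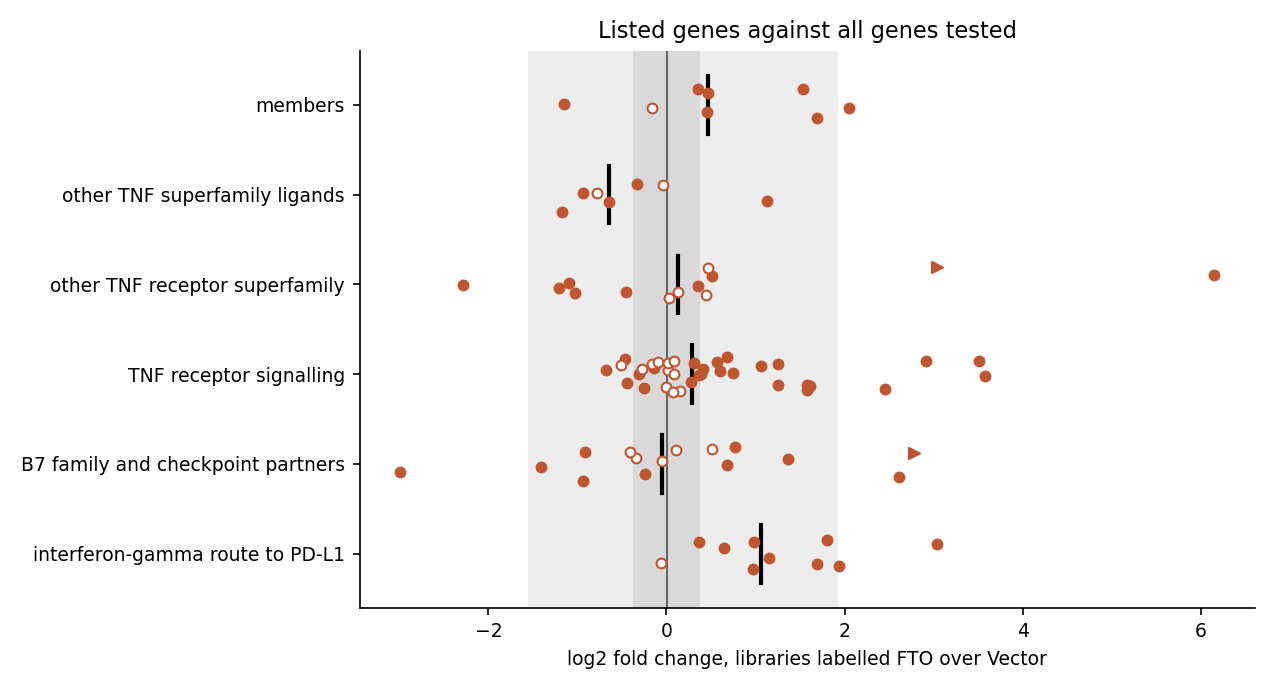
Log2 fold changes (horizontal axis, libraries labelled FTO over Vector) of the tested genes of 6 lists, filled where the adjusted p was under 0.05 and open otherwise, with the median of each list as a black bar and triangles for genes drawn at a lower bound. Shading covers the middle 50 and 90 percent of all genes tested, and the interferon-γ list has the highest median, 1.06.

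PD-L1 was set beside its family and the proteins that act on it. Of 15 B7 family and checkpoint genes tested, 5 were higher and 5 lower, beside 33.2% and 32.8% over all genes. Their median log2 fold change was -0.05. These counts are a description, since Cd28, Cd86 and Vtcn1 passed the filter only through the group in which they were high. Havcr2, which did not pass the test, also passed the filter through the libraries labelled FTO alone. Pdcd1lg2 (PD-L2), the other ligand of PD-1, and Pdcd1 (PD-1) were listed at 0 counts in all 6 libraries, as was Tigit, and Ctla4 had 1 count in 1 library. Cd86, a costimulatory ligand of antigen-presenting cells, fell from 7.22 ± 0.53 to 0.882 ± 0.244 CPM (log2 fold change -2.99, SE 0.214, edgeR adjusted p = 7.2e-09). It passed the filter through Vector alone. The macrophage markers given above moved with it, and their part in this fall was not tested. Lgals9 (galectin-9) rose from 44.4 ± 2.10 to 271 ± 10.8 CPM (log2 fold change 2.61, SE 0.0525, edgeR adjusted p = 1.4e-15), and Icoslg from 13.2 ± 0.582 to 33.9 ± 0.0997 CPM (1.36, edgeR adjusted p = 4.3e-10).

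Vtcn1 (B7-H4) had 0, 1 and 1 counts in Vector and 23, 18 and 24 in the libraries labelled FTO, at least 6.86-fold higher against the floor (edgeR adjusted p = 3.3e-06). It too passed the filter only through the group in which it was high. Cmtm4 and Cmtm6 encode membrane proteins known to stabilise PD-L1. Cmtm4 fell from 12.8 ± 1.58 to 4.76 ± 0.825 CPM (log2 fold change -1.41, edgeR adjusted p = 6.4e-07). Cmtm6, picked once its values were known, was at 154 ± 3.06 CPM in Vector and 149 ± 6.45 CPM in the libraries labelled FTO (log2 fold change -0.05, SE 0.0459, edgeR adjusted p = 0.319).

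The interferon-γ route to PD-L1 runs from the receptor through JAK kinases to IRF1. Of 10 tested genes of this route, 9 were higher at an adjusted p under 0.05 and 0 lower, beside 33.2% higher over all genes, with a median log2 fold change of 1.06. These counts too are a description, since the list was chosen with earlier results of these data known. Ifng itself was listed at 0 counts in each library. Jak2 rose from 98.1 ± 3.62 to 808 ± 29.2 CPM (log2 fold change 3.04, SE 0.0471, edgeR adjusted p = 6.9e-17), while Jak1 was at 405 ± 4.30 and 388 ± 33.3 CPM (-0.06, edgeR adjusted p = 0.31).

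The receptor chain Ifngr1 rose from 208 ± 4.93 to 727 ± 14.1 CPM (log2 fold change 1.80), and Irf9, a factor of the interferon response, from 25.3 ± 1.75 to 96.9 ± 1.81 CPM (1.94). Socs1, the feedback inhibitor of JAK kinases, rose from 0.929 ± 0.215 to 2.06 ± 0.109 CPM (1.15, edgeR adjusted p = 0.00184). Irf1, the factor named last in the route and singled out for that place, was at 25.6 ± 1.76 CPM in Vector and 50.1 ± 1.45 CPM in the libraries labelled FTO (0.97, edgeR adjusted p = 6.3e-09).

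The libraries were checked for markers of the labelled cells and of others that NRCF cultures could hold. All 9 fibroblast markers were present, 4 of them higher and 5 lower in the FTO-labelled group, and their sum went from 37700 to 38600 CPM down to 19100 to 20300 CPM. Most of that sum was Col1a1 (mean 25800 CPM in Vector, 8270 CPM in the FTO-labelled group) and Col3a1 (10700 and 3340 CPM). Pdgfrb, Tcf21 and Ddr2 also fell, while Dcn (47.0 to 5610 CPM), Lum, Pdgfra and Thy1 rose. The 1 macrophage marker that rose was Adgre1. Of 8 cardiomyocyte markers, 7 were higher, with sums of 1720 to 1760 CPM in Vector and 2690 to 2780 CPM in the libraries labelled FTO. Of 4 mural cell markers tested, 2 were higher and 2 lower, with sums of 495 to 511 CPM and 252 to 276 CPM. Mcam (mean 399 to 55.2 CPM) and Cspg4 (80.1 to 30.1 CPM) fell, and Kcnj8 (2.06 to 60.8 CPM) and Abcc9 (20.9 to 114 CPM) rose. Dendritic cell markers summed to 29.1 to 30.9 CPM and 13.9 to 14.8 CPM, and neutrophil markers to 0.878 to 1.27 CPM and 1.84 to 2.60 CPM. S100a8 alone of the neutrophil markers was tested, and it was higher. It passed the filter only through the libraries labelled FTO, which favours a rise, so its test is no independent support for one. Csf3r, too low to test, had 9, 12 and 13 counts in Vector and 2, 1 and 1 in the libraries labelled FTO. The part of all these markers in the differences of the members was not tested.

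**Figure D4:**
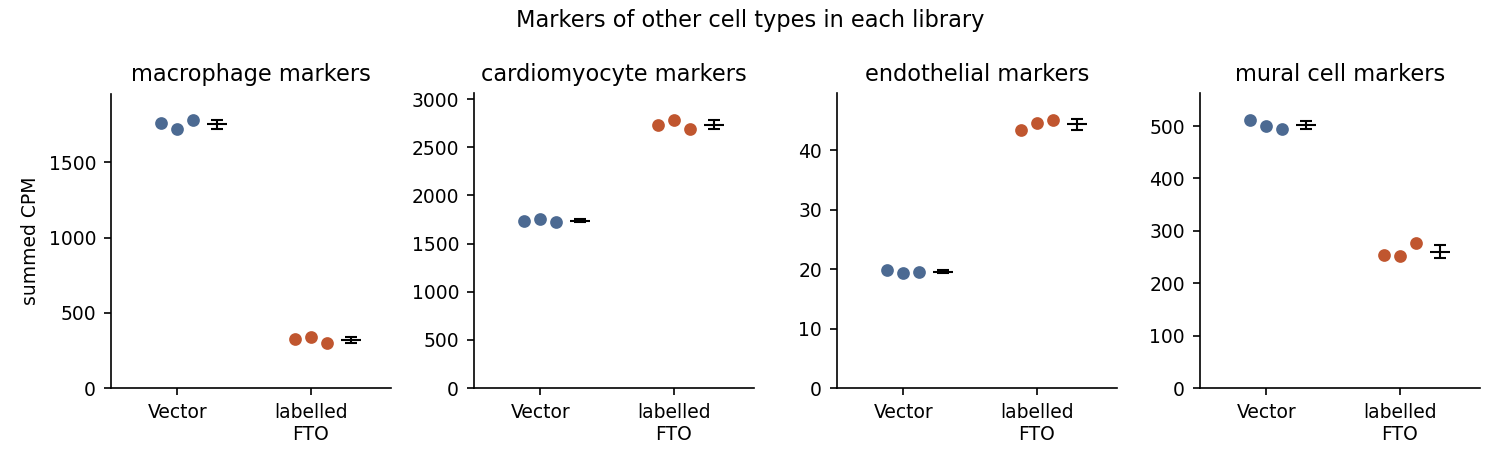
Summed CPM (vertical axes, each from 0) of markers of macrophages, cardiomyocytes, endothelial cells and mural cells in the 3 Vector libraries (blue) and the 3 libraries labelled FTO (orange), with the mean and SD of each group in black. Macrophage and mural cell sums are lower, and cardiomyocyte and endothelial sums higher, in each library labelled FTO. Of the 4 mural cell markers tested, 2 were higher.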

How the data were processed

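RNA-seq of NRCFs was compared between 3 Vector libraries and 3 libraries labelled FTO. Raw counts per gene symbol were deposited by the authors, in 1 file per library. The submitters' processing notes name Trimmomatic and the build rn6, the labels name the NEBNext Ultra RNA kit, and the aligner, counter, annotation and use of strand are not given in the sources used here. Genes with near-identical copies are uncertain to that extent.

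Genes were kept with filterByExpr at a minimum count of 10, which left 12941 genes. Libraries were scaled by TMM, a trimmed mean of log ratios between libraries (factors 0.995 to 1.005), and groups were compared with the quasi-likelihood test of edgeR 4.0.16 in R 4.3.3, two-sided, without covariates, with Benjamini-Hochberg adjustment over all genes tested. SE was derived from the F statistic. Ratios were compared with an exact permutation test written in Python 3.11.15. The procedure was tested on simulated counts in which few genes were changed, equally up and down. In these data 65.9% of genes passed the test, so the simulation does not cover scaling where most genes differ. No molecular identifiers were used, so floors cover counting error alone and intervals add the replicate spread.

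The members and lists were chosen with earlier results of these data known. Named genes are the members, Fto and, in each of the 5 pathway lists, up to 5 genes with the largest absolute log2 fold change among those with an adjusted p under 0.05, no overlap in CPM and a mean of at least 10 counts, beside genes too low to test. Genes that the rule names but the text leaves out are not reported here. Names beyond this rule (Tnfsf12, Nfkb1, Nfkb2, Rela, Relb, Cflar, Casp8, Fadd, Adam17, Ripk1, Tradd, Ikbkb, Ikbkg, Cmtm6, Jak1, Irf1 and the marker Adgre1) were picked once their values were known. The same holds for Tnfsf8, Cd28, Havcr2, Traf4, Traf5, Tab2, Map3k14, Chuk and the other cell type markers named. The alternatives were limma-voom (limma 3.58.1), DESeq2 1.42.0, its size factors under edgeR, library size alone, other filters, a replicate block and leaving out each library. Same-numbered libraries of the 2 groups did not deviate together (correlations 0.000397, -0.0698 and 0.026), so the numbers were not taken to pair them. Of the listed genes, 1 of the B7 family, 1 T cell marker and 2 endothelial markers are not analysed here.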

Additional observations from a re-analysis of the deposited data

How the results depend on the processing

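Of 429 alternative values for 33 single genes, 8 of them members, 3 calls were lost, 0 were gained and 1 changed sign. The calls lost were those of Tnfsf13b and Tnfrsf25, given in the report, and the change of sign was that of Cd40, whose log2 fold change ran from -0.295 to 0.0609 when 1 library was left out, the latter without FTO replicate 3. The cause was not tested. Counts of members and of genes on each list stayed within 1.5 times their value under all 13 alternatives, and with the replicate block 7 members passed the test, with the log2 fold change of Tnfsf13b at -1.15 (edgeR adjusted p = 0.0232). The block changed no other call. Over the 13 alternatives the log2 fold change of Tnfsf13b ran from -1.52 to -0.87, that of Cd274 from 1.88 to 2.17, that of Tnfrsf1b from 1.62 to 1.74 and that of Tnfrsf11b from 1.5 to 1.57. Among the tested members, Tnfsf13b, Cd40 and Cd274 rest on the fewest counts. Protein and surface levels were not measured.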

Other observations

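Families named for TNF by symbol alone were picked after the data were seen. Of 8 genes tested whose symbols begin with Tnfaip, 3 of them relatives of Tnfaip8, 4 rose and 1 fell, beside 33.2% and 32.8% over all genes. Apart from Tnfaip3, Tnfaip6 (TSG-6, a hyaluronan-binding protein) rose from 6.37 ± 0.876 to 47.9 ± 5.78 CPM (SD, n = 3 each), a log2 fold change of 2.91 (SE 0.117, edgeR adjusted p = 6.5e-12). Tnfaip2 rose from 145 ± 7.02 to 319 ± 19.0 CPM (1.13, edgeR adjusted p = 3e-11). Tnfaip8l2 (TIPE2), known from immune cells, fell from 13.0 ± 0.785 to 3.88 ± 0.705 CPM (-1.76, edgeR adjusted p = 3.6e-08).

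The C1qtnf genes encode secreted proteins with a C1q domain related in fold to TNF. Of 5 tested, 3 were higher and 2 lower, beside 33.2% and 32.8% over all genes. C1qtnf1 rose from 71.7 ± 1.21 to 412 ± 24.3 CPM (log2 fold change 2.52, SE 0.0514, edgeR adjusted p = 1.6e-15) and C1qtnf7 from 33.9 ± 1.29 to 180 ± 14.1 CPM (2.40, SE 0.0645, edgeR adjusted p = 4.4e-14). C1qtnf2 fell from 28 ± 0.336 to 15.4 ± 0.389 CPM (-0.87, edgeR adjusted p = 9.5e-08).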
